A study of Homo sapiens with 16 samples.

Results

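Long noncoding RNAs were followed by name in spheroids of 3 prostate cancer cell lines. The set held every gene of the deposited expression table named LINC or SNHG with a number, PCAT with a number, or MALAT1, NEAT1, GAS5, PCA3, PCGEM1, SCHLAP1, KCNQ1OT1, OIP5-AS1 or DLEU2. Of the 10566 genes tested, 57 met this rule: 32 LINC genes, 18 small nucleolar RNA hosts (17 SNHG genes and GAS5), MALAT1, NEAT1, OIP5-AS1, DLEU2, PCAT1, PCAT6 and SCHLAP1. The whole count table listed 2303 genes with such names. Of these, 656 had a count in some library, and the 599 of them that were too sparse to test reached at most 16 counts in a library and 100 counts over the 16 libraries (SNHG4). PCA3 had 0 counts, PCGEM1 had 2 and KCNQ1OT1 had 18 over all libraries. At this depth these RNAs were not detectable or too sparse to compare.

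The spheroids came from LNCaP cells, which depend on androgen, 22Rv1 cells, which respond to it, and PC3 cells, which do not depend on it. Cells received 25 pmol of a pool of siRNAs against MED12 (siMED12), a subunit of the Mediator kinase module, or of a non-targeting pool (siCtrl), grew in 2D for 3 days and were then kept for 4 days as spheroids in ultra-low attachment plates. There were 3 siCtrl libraries for each line, 3 siMED12 libraries for LNCaP, and 2 siMED12 libraries (replicates 1 and 3) for 22Rv1 and for PC3. Each line is a single established line, every group was transfected, and the labels do not tie replicates to separate cultures. The methods describe experiments in general as done in biological replicates without naming these libraries, and where libraries share a culture, p-values measure only the spread between them. RNA was sequenced from its 3′ end (BRB-seq, a 3′ tag method with barcoded oligo-dT primers), so levels are given as CPM (counts scaled to library size by the trimmed mean of M values) and are not divided by transcript length. A bulk library cannot tell fewer cells from less RNA per cell.

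Long noncoding RNAs are transcribed and processed much like messenger RNAs but do not encode a known protein. Small nucleolar RNA hosts carry in their introns the small RNAs that guide modification of ribosomal RNA, and their spliced exons are in many cases degraded by nonsense-mediated decay. NEAT1 is the scaffold of nuclear paraspeckles and MALAT1 gathers in nuclear speckles. MALAT1 and the long NEAT1 isoform end in a triple helix in place of a poly(A) tail, so oligo-dT libraries count them only in part. SCHLAP1, PCAT1 and PCAT6 were named from prostate cancer.

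Library totals ran from 479118 to 993807 counts, and the 57 RNAs took 0.219% to 0.418% of them. A library with 0 counts of a gene allows up to 3 counts, or 3.15 to 6.22 CPM, and such limits cover counting error only. For 25 of the 57 RNAs the median library held fewer than 10 counts, for 24 it held 10 to 49 and for 8 it held 50 or more. MED12 itself was counted at 9.94 to 12.9 CPM in LNCaP siCtrl and 6.67 to 10.4 CPM in LNCaP siMED12, at 16.7 to 23.4 CPM in 22Rv1 siCtrl and 7.42 and 8.98 CPM in 22Rv1 siMED12, and at 8.41 to 28.4 CPM in PC3 siCtrl and 14.5 and 15.8 CPM in PC3 siMED12. None of these differences passed the edgeR quasi-likelihood test (adjusted p = 0.878, 0.175 and 0.987), and the groups were apart in 22Rv1 only. The paper reports a highly efficient knockdown of MED12 in its spheroids. At 5 to 22 counts a library, the log2 fold change of MED12 was -0.50 ± 0.46 (SE) in LNCaP, -1.28 ± 0.46 in 22Rv1 and -0.22 ± 0.43 in PC3. A clear loss of MED12 was thus not seen in these LNCaP or PC3 libraries, and the cause was not tested. The siMED12 comparisons below carry this limit. Of 11 markers of the androgen-responsive lines, the summed level was 4904 to 7287 CPM in LNCaP, 832 to 946 CPM in 22Rv1 and 113 to 168 CPM in PC3 apart from siMED12 replicate 3 of PC3, at 288 CPM. Of 11 markers of PC3, it was 3156 to 4239 CPM in PC3 and 80.1 to 214 CPM in the other lines apart from siMED12 replicate 3 of 22Rv1, at 295 CPM.

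The RNAs together made up 3981 ± 298 CPM (SD, n = 3) in LNCaP siCtrl, 4081 ± 271 CPM (n = 3) in 22Rv1 siCtrl and 2305 ± 91.6 CPM (n = 3) in PC3 siCtrl. The libraries of PC3 lay below all others in this sum. Most of it was hosts of small nucleolar RNAs, with 3017 ± 279 CPM in LNCaP, 3408 ± 219 CPM in 22Rv1 and 1643 ± 63.7 CPM in PC3. The 32 LINC genes summed to 599 ± 28.6, 560 ± 54.4 and 556 ± 38.3 CPM, ranges that overlapped between the lines. One host, SNHG29, made up 41.7% to 45.9% of the sum in LNCaP libraries, 39.9% to 46.6% in 22Rv1 and 16.7% to 18.8% in PC3. Without it the sums were 2229 ± 126 CPM in LNCaP, 2356 ± 168 CPM in 22Rv1 and 1884 ± 78.0 CPM in PC3.

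**Figure D1:**
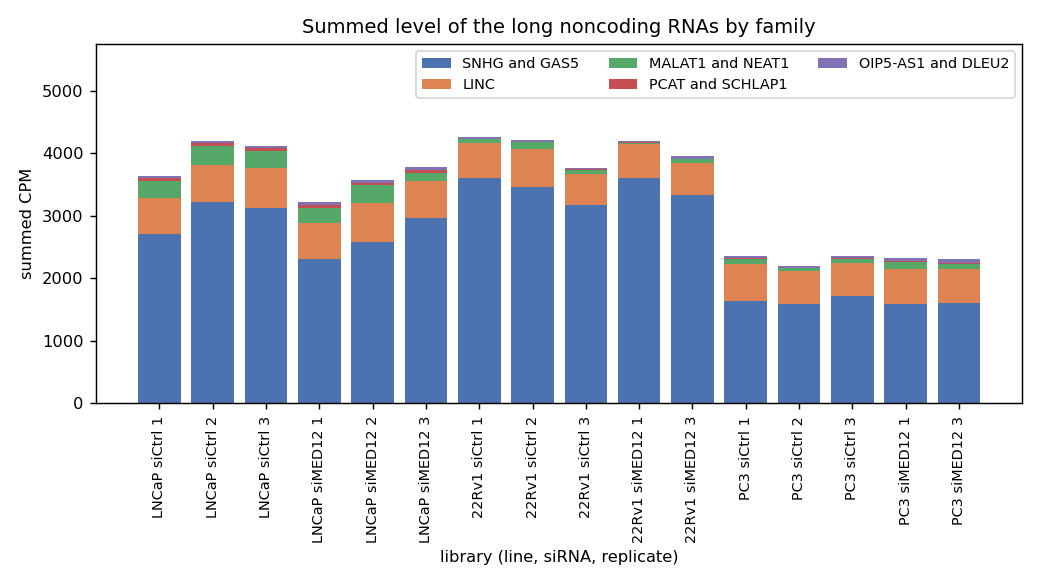
Summed CPM (y axis) of the 57 RNAs in each of the 16 libraries (x axis), stacked by family, 1 library a bar. All 5 PC3 libraries sit between 2199 and 2362 CPM, and the LNCaP and 22Rv1 libraries between 3221 and 4257 CPM.

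The first comparison asked which of these RNAs differ between the siCtrl spheroids of the 3 lines. Between 22Rv1 and LNCaP, 32 of the 57 passed the test at an adjusted p under 0.05, against 43.2% of all tested genes, and 9 were higher in 22Rv1 (22% of all genes) and 23 lower (21.2%). Between PC3 and LNCaP 42 passed (54.7% of all genes), 16 higher in PC3 (29.2%) and 26 lower (25.5%). Between PC3 and 22Rv1 34 passed (54.9%), 18 higher (28.7%) and 16 lower (26.1%). Their median log2 fold change was -0.22, -0.63 and -0.09 in these comparisons, beside 0.00, 0.05 and 0.01 over all tested genes. Each siCtrl group enters a pair of these comparisons, so the counts are not independent of each other. Of the 57 RNAs, 11 passed all 3 comparisons, 36 passed 2, 3 passed 1 and 7 passed none.

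**Figure D2:**
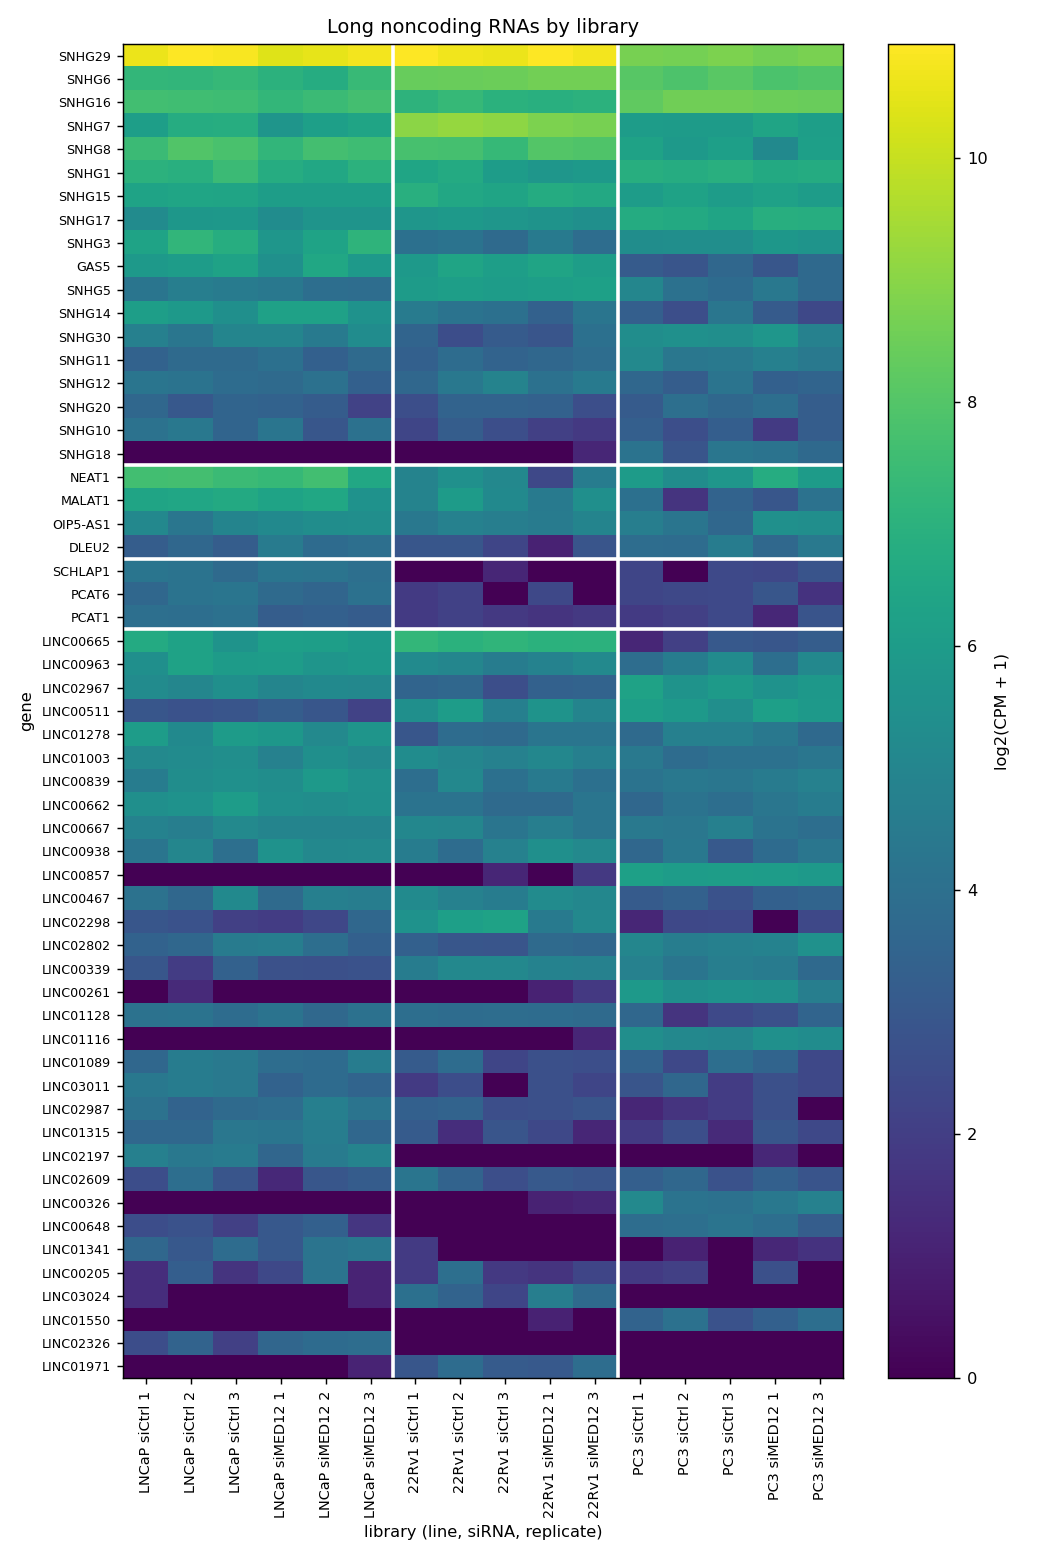
Level of each of the 57 RNAs (rows, log2 of CPM + 1, colour scale) in each of the 16 libraries (columns). White lines part the lines of cells and the families, which from the top are small nucleolar RNA hosts, nuclear and other named RNAs, prostate RNAs and LINC genes, and the blocks of dark cells are RNAs at or near 0 counts in a line.

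Among the hosts the direction was mixed. Against LNCaP, PC3 had 6 of the 18 higher (SNHG6, SNHG11, SNHG16, SNHG17, SNHG18 and SNHG30) and 6 lower (SNHG3, SNHG7, SNHG8, SNHG14, SNHG29 and GAS5). SNHG29, the most abundant of the set, was read at 1556, 1902 and 1801 CPM in LNCaP siCtrl, at 1925, 1681 and 1567 CPM in 22Rv1 and at 418, 404 and 442 CPM in PC3. Every PC3 library was below every library of the other lines, at -2.06 ± 0.121 (SE) on the log2 scale against LNCaP (adjusted p = 1.46e-15 by edgeR), and LNCaP and 22Rv1 overlapped. SNHG7 stood at 524, 582 and 534 CPM in 22Rv1, 69.6, 109 and 111 CPM in LNCaP and 64.5, 63.1 and 62.1 CPM in PC3. Every 22Rv1 library was above every library of the other lines, at 2.47 ± 0.153 on the log2 scale against LNCaP (edgeR adjusted p = 1.54e-14) and of -3.11 ± 0.161 for PC3 against 22Rv1 (edgeR adjusted p = 8.55e-17). SNHG3 was read at 81.2, 148 and 110 CPM in LNCaP, 15.6, 16.7 and 12.8 CPM in 22Rv1 and 40.0, 41.0 and 41.9 CPM in PC3, so that no 2 lines overlapped. SNHG6 was lowest in LNCaP (152 ± 5.61 CPM) and highest in 22Rv1 (347 ± 9.84 CPM), with PC3 between them at 275, 236 and 283 CPM. SNHG16 was highest in PC3, at 353 ± 40.1 CPM beside 190 ± 3.65 CPM in LNCaP and 139 ± 16.8 CPM in 22Rv1. SNHG30 was lowest in 22Rv1 (25.3 ± 6.15 CPM in LNCaP, 7.71 ± 2.70 CPM in 22Rv1 and 42.0 ± 2.08 CPM in PC3). SNHG17 (49.2 ± 9.63, 54.3 ± 2.25 and 95.7 ± 10.7 CPM in the same order) and SNHG11 (11.8 ± 1.66, 10.9 ± 2.20 and 24.7 ± 8.83 CPM) were higher in PC3 than in both other lines. SNHG8 (216 ± 37.4, 194 ± 29.4 and 69.0 ± 9.39 CPM) was lower in PC3 than in both. SNHG14 (56.4 ± 13.6, 18.1 ± 3.56 and 11.0 ± 6.98 CPM) was lower in both other lines than in LNCaP, and SNHG10 (15.7 ± 4.78, 5.80 ± 2.30 and 7.65 ± 2.08 CPM) in 22Rv1 than in LNCaP. SNHG15 (82.2 ± 2.51, 97.5 ± 17.5 and 69.5 ± 8.14 CPM) passed between PC3 and 22Rv1 only, and SNHG20 (9.79 ± 2.33, 8.50 ± 2.86 and 11.3 ± 3.49 CPM) and SNHG12 (16.4 ± 2.33 CPM in LNCaP, 11.7, 20.1 and 28.2 CPM in 22Rv1 and 12.5 ± 4.52 CPM in PC3) passed in no comparison of lines. SNHG5 was highest in 22Rv1 (65.5 ± 2.64 CPM), above LNCaP (21.6 ± 3.11 CPM) and PC3 (19.9 ± 9.67 CPM), whose ranges overlapped.

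GAS5, which hosts a run of box C/D small nucleolar RNAs, was depleted in PC3. It was read at 58.0, 65.9 and 78.4 CPM in LNCaP siCtrl, 59.9, 81.9 and 69.3 CPM in 22Rv1 and 7.7, 6.3 and 11.6 CPM in PC3. In raw counts this was 155 over the LNCaP libraries, 149 over the 22Rv1 libraries and 20 over the PC3 libraries, a ratio of 8.35 (95% exact counting interval 5.22 to 14.1) for LNCaP and of 8.40 (5.25 to 14.1) for 22Rv1. GAS5 (GRCh38 chromosome 1, 173858559 to 173868882, minus strand) overlaps ZBTB37 on the opposite strand. Of the 57 RNAs, 17 overlap another tested gene, 13 of them on the opposite strand, and whether counting used the strand is not given in the sources used here, so that their reads cannot be told apart from those of the partner.

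Many host genes start with a terminal oligopyrimidine tract, a C followed by pyrimidines that ties translation and stability of the RNA to growth signals. In the RefSeq windows of promoters (GRCh38.p14) a C followed by at least 4 pyrimidines stood at the start in 3 of 16 host windows, 2 of 39 windows of the other RNAs and 4.07% of all 35116 windows. Only the start annotated by RefSeq was read, and it can differ from that of Gencode. The GAS5 window, at 173868996 to 173869295, lies wholly upstream of the Gencode start at 173868882. A host counted without a tract may therefore have 1 at another start. The 30 bases around the start of the 3 hosts follow, with the tract in capitals. The tract of SNHG18 runs on past the last base shown.
SNHG5 (chr6:85678719-85678748, minus strand): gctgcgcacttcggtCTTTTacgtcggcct
SNHG12 (chr1:28581859-28581888, minus strand): tcgcggcttcagcgcCCTTTCTCCCCgccg
SNHG18 (chr5:9546185-9546214, plus strand): ccgccgccgcgccgcCTCCTCCTCCTCCTC
These 3 hosts did not share a pattern, with SNHG5 highest in 22Rv1, SNHG12 past the threshold in no comparison of lines and SNHG18 read in PC3 alone among the siCtrl libraries.

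NEAT1 and MALAT1 were both highest in LNCaP. NEAT1 was read at 197, 205 and 175 CPM in LNCaP siCtrl, 28.6, 43.5 and 33.4 CPM in 22Rv1 and 63.2, 40.0 and 52.0 CPM in PC3. It was lower in 22Rv1 (log2 fold change -2.46 ± 0.273, edgeR adjusted p = 8.16e-09) and in PC3 (-1.90 ± 0.249, edgeR adjusted p = 1.04e-07), which overlapped each other. MALAT1 differed between all lines, with 82.8, 88.8 and 99.6 CPM in LNCaP, 28.6, 63.5 and 35.9 CPM in 22Rv1 and 15.5, 2.1 and 10.1 CPM in PC3, and no 2 lines overlapped. The 16 paraspeckle proteins of a list drawn from general knowledge were all tested, and 5 were higher and 1 lower in 22Rv1 than in LNCaP, 4 higher and 2 lower in PC3 than in LNCaP, and 1 higher and 5 lower in PC3 than in 22Rv1. Of all genes, 22% and 21.2%, 29.2% and 25.5%, and 28.7% and 26.1% were higher and lower in these comparisons. The level of OIP5-AS1, an antisense RNA that binds the protein HuR, passed no comparison of lines (27.1 ± 7.58, 23.5 ± 3.68 and 18.0 ± 6.48 CPM in LNCaP, 22Rv1 and PC3). DLEU2, host of the miR-15a and miR-16 genes, was read at 14.2, 13.7 and 23.1 CPM in PC3, above 22Rv1 at 6.5, 6.7 and 3.8 CPM, a log2 fold change of 1.54 (edgeR adjusted p = 0.00591).

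The 3 prostate RNAs were highest in LNCaP. SCHLAP1, an RNA associated with aggressive prostate cancer (chromosome 2, 180692104 to 180916939, plus strand), was read at 18.2, 17.2 and 12.7 CPM in LNCaP siCtrl, at 0, 0 and 1.3 CPM in 22Rv1 and at 3.9, 0 and 4.3 CPM in PC3. PCAT1 was read at 14.9, 14.3 and 15.9 CPM in LNCaP, 2.6, 3.3 and 2.6 CPM in 22Rv1 and 2.6, 3.2 and 4.3 CPM in PC3. PCAT6 was read at 11.6, 17.2 and 18.0 CPM in LNCaP, 2.6, 3.3 and 0 CPM in 22Rv1 and 3.9, 4.2 and 4.3 CPM in PC3. All 3 passed the edgeR test against both other lines, with LNCaP libraries above all others, and none passed between 22Rv1 and PC3. The low side of each comparison rests on 0 to 4 counts a library.

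Line-restricted RNAs were taken as those with a siCtrl mean of at least 10 CPM in 1 line, a log2 fold change of at least 3 past the threshold against each other line and no overlap of libraries, and line-depleted RNAs as the reverse. Of the 57, 9 were restricted and 2 depleted: LINC01341 and LINC02197 in LNCaP, LINC02298 in 22Rv1, LINC00261, LINC00326, LINC00857, LINC01116, LINC01550 and SNHG18 in PC3, and GAS5 and LINC00665 depleted in PC3. These values chose the RNAs and are given as a description. The share of all tested genes that meet the same rule was not counted. The numbers therefore cannot be read as a trait of long noncoding RNAs. Just inside stood GAS5 at a log2 fold change of -3.02 against LNCaP and LINC01550 at a mean of 10.6 CPM, and just outside stood LINC00511, low in LNCaP and at 2.76 in 22Rv1 against LNCaP, SCHLAP1, high in LNCaP and at -2.58 in PC3 against LNCaP, and LINC03024, read in 22Rv1 at a mean of 9.83 CPM. GAS5 left the set without LNCaP siCtrl replicate 3, 22Rv1 siCtrl replicate 2, or PC3 siCtrl replicate 1 or 2, and LINC01341 left it without 22Rv1 siCtrl replicate 2 or 3.

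All 6 RNAs of the PC3 set had 0 counts in at least 1 other line throughout siCtrl, and there the fold is given as a lower bound against 3 counts a library. LINC00857 was read at 72.2, 65.2 and 67.9 CPM in PC3 siCtrl and had 0 counts in LNCaP, at least 16.5-fold higher, and 1 count over 22Rv1, a ratio of 146 (95% exact counting interval 25.9 to 5818). LINC00261 was read at 59.3, 42.1 and 46.2 CPM in PC3, and had 1 count over LNCaP (ratio 110, 19.3 to 4363) and 0 over 22Rv1 (at least 11.6-fold higher in PC3). LINC01116 had 41.3, 33.6 and 31.8 CPM in PC3 and 0 counts in the 6 other siCtrl libraries, at least 8.57-fold and 8.36-fold higher than in LNCaP and 22Rv1. LINC00326 and SNHG18 likewise had 0 counts outside PC3, with 34.8, 16.8 and 15.9 CPM and 16.8, 6.3 and 18.8 CPM in PC3. LINC01550 had 10.3, 15.8 and 5.8 CPM in PC3 and 0 counts in the other siCtrl libraries. LINC02197 mirrored them in LNCaP, at 26.5, 20.1 and 22.3 CPM, with 0 counts in both other lines (at least 5.39-fold and 6.06-fold higher). LINC01341 was read at 11.6, 7.2 and 13.8 CPM in LNCaP, beside 2 counts over 22Rv1 and 1 over PC3. LINC02298 was the restricted RNA of 22Rv1, at 46.8, 71.9 and 78.3 CPM, beside 6.6, 5.7 and 3.2 CPM in LNCaP (ratio 13.3, 7.22 to 27.3) and 1.3, 4.2 and 4.3 CPM in PC3 (ratio 19.7, 9.74 to 46.6). LINC00665, the other RNA depleted in PC3, was read at 101, 78.8 and 47.7 CPM in LNCaP, 148, 127 and 142 CPM in 22Rv1 and 1.3, 3.2 and 7.2 CPM in PC3 (ratio 19.3, 9.90 to 42.9, for LNCaP).

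**Figure D3:**
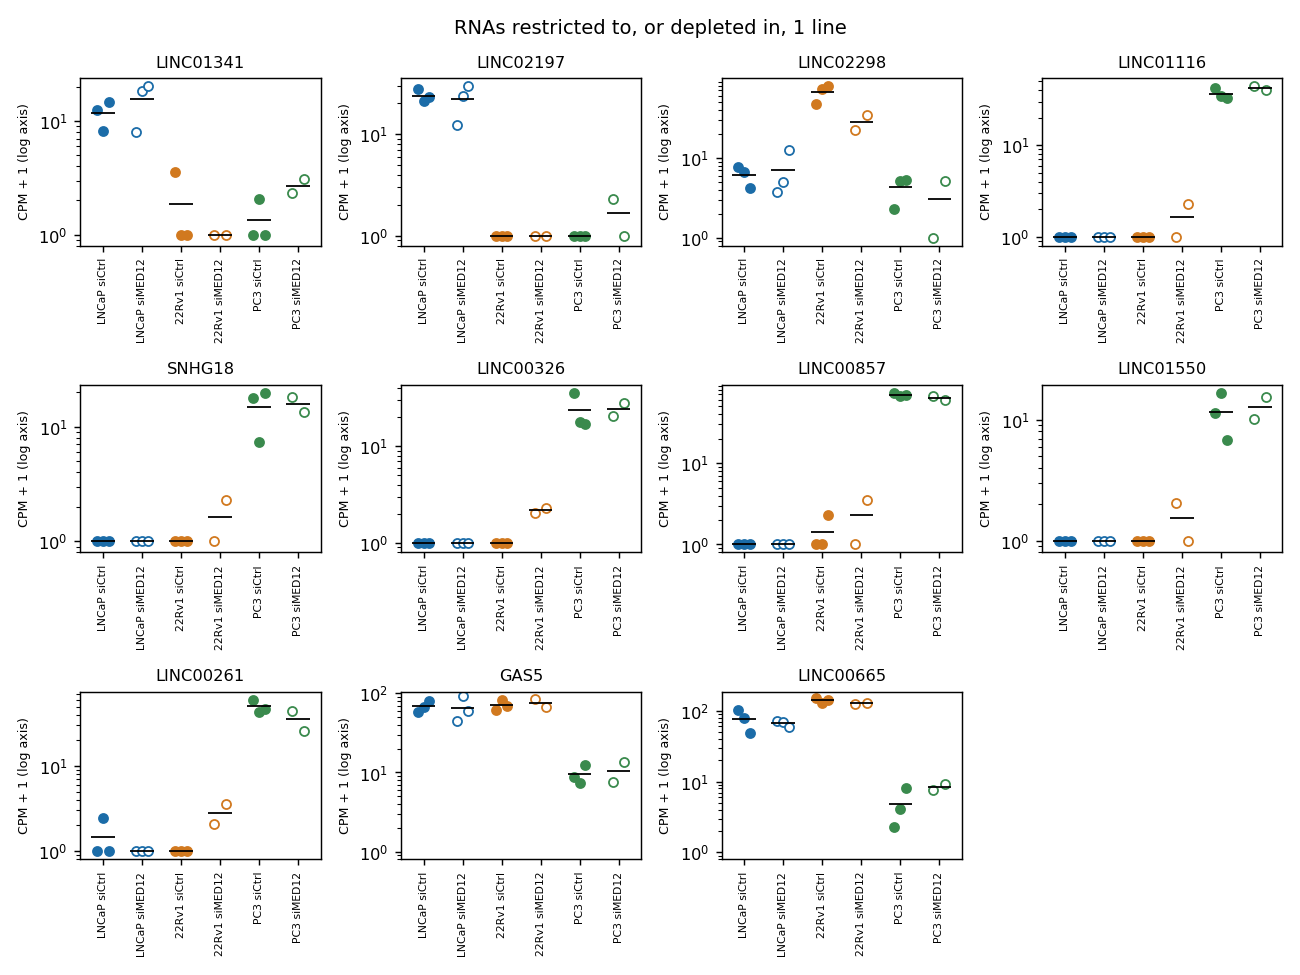
CPM + 1 on a log axis (y axis) of the 11 line-restricted or line-depleted RNAs in each group (x axis), 1 point a library, filled for siCtrl and open for siMED12, with a line at the group mean. Each RNA keeps its place in the siMED12 libraries, which entered the choice only through the shared filter, scaling and fit. A few 22Rv1 siMED12 points lie above 1 for RNAs of the PC3 set.

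The siMED12 libraries did not set the levels compared in this choice. They shared its filter on low counts, its scaling and its estimate of the spread. RNAs with few counts, such as LINC01341 and LINC01550, could pass that filter through them, so their levels are a description and not an independent check. In the siMED12 libraries all 11 RNAs kept their place. Each restricted RNA was higher in every siMED12 library of its line than in every siMED12 library of the others, and each depleted RNA lower. By ratio LINC02298 came nearest to an overlap, at 21.2 and 33.3 CPM in 22Rv1 against at most 11.5 CPM in the others. The 6 RNAs of the PC3 set summed to 0 or 1 count in each LNCaP library and each 22Rv1 siCtrl library, to 3 counts in siMED12 replicate 1 of 22Rv1 and to 7 in replicate 3, which is 1.59% and 4.48% of their level in PC3 siCtrl. The PC3 marker list stood at 3.62% and 7.63% of its PC3 siCtrl level in these libraries, and at 2.07% to 5.54% in the siCtrl libraries of 22Rv1 and in LNCaP. The part of counts from PC3 in these values was not tested.

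Neighbouring genes were set beside the restricted RNAs without a test of the relation. LINC00261 (chromosome 20, 22547663 to 22578642, minus strand) lies 2356 bp from FOXA2, a forkhead factor of endoderm, which was read at 0 CPM in LNCaP siCtrl, 0.434 ± 0.751 CPM in 22Rv1 and 53.0 ± 11.5 CPM in PC3. LINC00857 (chromosome 10, 80207372 to 80219657, plus strand) lies 1800 bp from ANXA11, a calcium-dependent membrane-binding protein, at 161 ± 17.2, 145 ± 23.7 and 928 ± 79.2 CPM in LNCaP, 22Rv1 and PC3. LINC02197 (chromosome 5, 71337182 to 71446772, minus strand) lies 8879 bp from BDP1, a subunit of the RNA polymerase III factor TFIIIB, at 15.4 ± 2.98, 3.15 ± 2.91 and 2.17 ± 0.984 CPM. In these 3 pairs the neighbour was highest in the same line as the RNA. LINC01341 (chromosome 1, 246775880 to 246792385, plus strand) was the reverse, with its neighbour SCCPDH, 7743 bp away, lowest in LNCaP (12.4 ± 8.07 CPM beside 164 ± 31.1 and 139 ± 14.2 CPM). LINC02298 (chromosome 14, 105092737 to 105100131, plus strand) lies 40851 bp from JAG2, a Notch ligand that was not highest in 22Rv1 (72.5 ± 6.69, 49.3 ± 15.6 and 17.5 ± 6.32 CPM).

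Promoter windows from RefSeq (GRCh38.p14, 250 bases before and 50 after the annotated start) were found for 47 of the 57 RNAs, 55 windows in all, and for 10 of the 11 restricted or depleted RNAs. LINC00326 had no window. The motifs searched on both strands were CACGTG (E-box), ACGTG (hypoxia response core, which every E-box holds), TGANTCA (AP-1), TGACGTCA (CRE), GAANNTTC (heat shock element), CCGGAAG (ETS) and TGTTTAC (forkhead core), with the androgen response element. The forkhead core was added after the windows had been read. Of the 47 RNAs, 8 held an E-box, 14 the hypoxia core, 2 AP-1, 1 CRE, 3 the heat shock element, 9 ETS, 5 the forkhead core and 0 the androgen response element. By window, the E-box stood in 14.5% of the 55 windows and 7.26% of all windows, the hypoxia core in 30.9% and 21.4%, AP-1 in 3.64% and 7.71%, CRE in 3.64% and 1.85%, the heat shock element in 5.45% and 6.77%, ETS in 20% and 10.3%, the forkhead core in 9.09% and 3.42%, and the androgen response element in 0% and 0.00285%. Windows are shown for the RNA that siMED12 moved (LINC02298), for those beside a neighbour highest in the same line (LINC00261, LINC00857 and LINC02197), for LINC01341, which held the forkhead core at 2 places, and for the RNAs depleted in PC3 (GAS5 and 1 of 2 windows of LINC00665), with motif letters in capitals.
LINC02298 (chr14:105093897-105094196, plus strand): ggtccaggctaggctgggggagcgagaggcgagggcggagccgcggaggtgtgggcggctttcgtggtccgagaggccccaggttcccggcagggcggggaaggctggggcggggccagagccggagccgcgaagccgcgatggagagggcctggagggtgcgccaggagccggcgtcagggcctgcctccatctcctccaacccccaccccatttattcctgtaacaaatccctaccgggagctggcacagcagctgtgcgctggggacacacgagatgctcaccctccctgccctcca
LINC00261 (chr20:22578593-22578892, minus strand): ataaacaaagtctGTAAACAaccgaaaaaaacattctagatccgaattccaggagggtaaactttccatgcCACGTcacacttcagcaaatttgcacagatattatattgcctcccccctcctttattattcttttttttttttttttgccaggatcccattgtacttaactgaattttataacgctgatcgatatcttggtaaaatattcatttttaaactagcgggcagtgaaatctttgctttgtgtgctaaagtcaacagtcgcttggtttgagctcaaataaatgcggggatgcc
LINC00857 (chr10:80207460-80207759, plus strand): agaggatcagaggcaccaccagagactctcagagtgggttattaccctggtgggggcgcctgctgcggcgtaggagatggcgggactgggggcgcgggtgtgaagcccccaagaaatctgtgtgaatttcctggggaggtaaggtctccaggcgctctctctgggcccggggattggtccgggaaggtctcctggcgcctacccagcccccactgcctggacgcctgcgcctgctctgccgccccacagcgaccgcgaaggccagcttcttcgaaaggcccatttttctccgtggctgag
LINC02197 (chr5:71446707-71447006, minus strand): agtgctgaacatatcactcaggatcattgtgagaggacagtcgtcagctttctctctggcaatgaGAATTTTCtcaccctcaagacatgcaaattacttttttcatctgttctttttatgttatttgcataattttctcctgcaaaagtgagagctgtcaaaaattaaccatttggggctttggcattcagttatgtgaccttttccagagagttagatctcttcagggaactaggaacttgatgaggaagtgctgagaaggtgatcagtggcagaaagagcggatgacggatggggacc
LINC01341 (chr1:246789367-246789666, plus strand): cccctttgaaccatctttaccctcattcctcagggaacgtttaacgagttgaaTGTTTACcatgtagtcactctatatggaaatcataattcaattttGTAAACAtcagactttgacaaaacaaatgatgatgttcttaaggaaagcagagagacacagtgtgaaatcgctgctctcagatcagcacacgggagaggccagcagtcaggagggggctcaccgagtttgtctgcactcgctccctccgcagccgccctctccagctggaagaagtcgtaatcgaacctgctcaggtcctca
GAS5 (chr1:173868996-173869295, minus strand): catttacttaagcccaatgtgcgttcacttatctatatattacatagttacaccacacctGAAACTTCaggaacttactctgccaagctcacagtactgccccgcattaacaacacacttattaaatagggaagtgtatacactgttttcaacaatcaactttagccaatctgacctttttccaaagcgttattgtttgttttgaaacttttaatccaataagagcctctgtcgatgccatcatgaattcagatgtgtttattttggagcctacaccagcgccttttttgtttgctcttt
LINC00665 (chr19:36331669-36331968, minus strand): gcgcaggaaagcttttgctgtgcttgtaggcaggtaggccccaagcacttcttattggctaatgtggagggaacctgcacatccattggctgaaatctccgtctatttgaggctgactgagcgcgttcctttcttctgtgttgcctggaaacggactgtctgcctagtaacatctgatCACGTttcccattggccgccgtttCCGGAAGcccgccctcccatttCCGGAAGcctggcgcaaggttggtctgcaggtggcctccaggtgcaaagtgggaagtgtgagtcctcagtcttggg
The capitals are a forkhead core and a hypoxia core in LINC00261, forkhead cores in LINC01341, heat shock elements in LINC02197 and GAS5, and a hypoxia core with a pair of ETS matches in LINC00665, and LINC02298 and LINC00857 held none of these letters. A match describes the sequence and not a bound site.

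The second comparison asked what siMED12 did to these RNAs within each line. Few passed: 0 of 57 in LNCaP, where 0.416% of all tested genes did, 1 in 22Rv1 (1.84%, and 0.842% for lower genes) and 0 in PC3 (0%). At an unadjusted p under 0.05 there were 6, 6 and 2 of the 57, beside 7.34%, 11.7% and 4.99% of all genes. The mean effect over the 3 lines passed for 0 of 57 (0.265% of all genes) and at an unadjusted p under 0.05 for 3, beside 8.52% of all genes. The libraries of siMED12 and siCtrl were apart without overlap for 7 RNAs in LNCaP (12.3% of them, beside 12.6% of all genes), 15 in 22Rv1 (26.3%, beside 26.6%) and 9 in PC3 (15.8%, beside 20.7%). These shares were near the background in LNCaP and 22Rv1 and below it in PC3.

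LINC02298, the 22Rv1-restricted RNA, was the one past the threshold in 22Rv1, and it was lower. Its counts in 22Rv1 were 36, 43 and 61 in siCtrl and 20 and 26 in siMED12, or 46.8, 71.9 and 78.3 CPM against 21.2 and 33.3 CPM. Both siMED12 libraries were below each siCtrl library, and the fitted change was -1.28 ± 0.31 on the log2 scale (adjusted p = 0.0205 by edgeR). It was read at 6.6, 5.7 and 3.2 CPM in LNCaP siCtrl and 2.8, 4.0 and 11.5 CPM in LNCaP siMED12, and at 0 to 4.3 CPM in PC3, where the groups overlapped. The difference between its effect in 22Rv1 and in LNCaP was -1.65 ± 0.74 and did not pass (edgeR adjusted p = 0.55). The call was lost without siCtrl replicate 2 (adjusted p = 0.0681), without siCtrl replicate 3 (0.109), without siMED12 replicate 1 (0.383), by the legacy edgeR test (0.0527) and by limma (0.269), while the log2 fold change stayed between -1.62 and -0.97 in 23 alternatives. The neighbour JAG2 was read at 49.3 ± 15.6 CPM in 22Rv1 siCtrl (n = 3) and 24.2 ± 5.71 CPM in siMED12 (n = 2), given without a test.

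**Figure D4:**
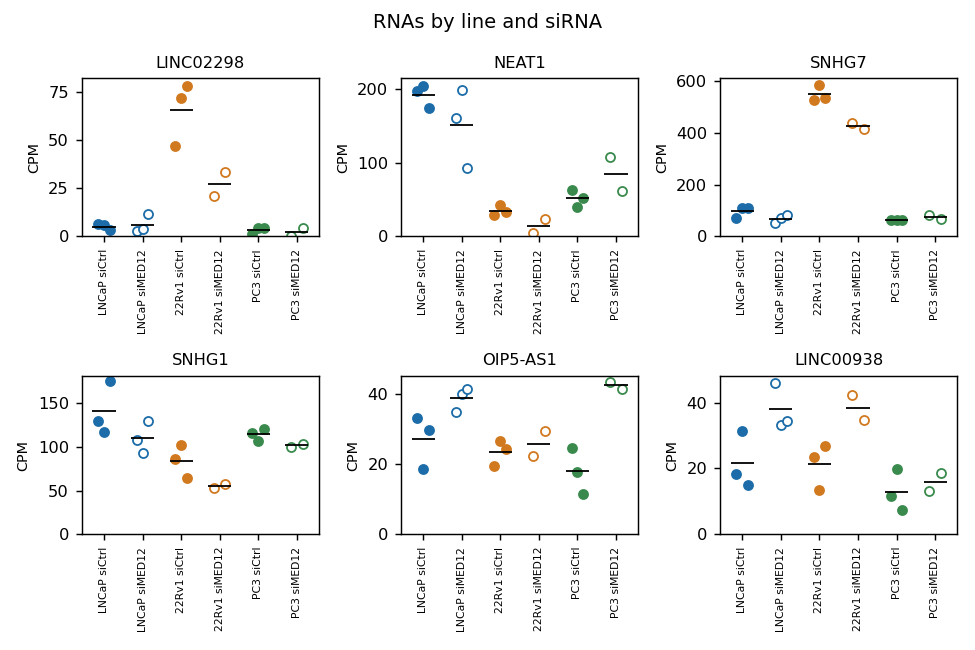
CPM (y axis, from 0) of 6 RNAs in each group (x axis), 1 point a library, filled for siCtrl and open for siMED12, with a line at the group mean. LINC02298 lies lower in both 22Rv1 siMED12 libraries (21.2 and 33.3 CPM), and the NEAT1 libraries of 22Rv1 siMED12 are far apart (4.2 and 23.1 CPM).

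NEAT1 came next in 22Rv1. It had 22, 26 and 26 counts in siCtrl and 4 and 18 in siMED12, or 28.6, 43.5 and 33.4 CPM against 4.2 and 23.1 CPM, a log2 fold change of -1.42 ± 0.48 that did not pass (edgeR adjusted p = 0.147). In PC3 its value was 0.79 ± 0.315 (edgeR adjusted p = 0.892), with 63.2, 40.0 and 52.0 CPM in siCtrl and 108 and 62.2 CPM in siMED12, which overlapped. In LNCaP it was -0.36 ± 0.214 (edgeR adjusted p = 0.767). The difference between the effects in PC3 and 22Rv1 was 2.21 ± 0.572 (edgeR adjusted p = 0.133). Without siMED12 replicate 3 of 22Rv1, the value in 22Rv1 was -2.98 (adjusted p = 0.0224) and this difference was 3.77 (adjusted p = 0.0258), both then past the threshold on a single siMED12 library with 4 counts. Without siMED12 replicate 1, the value in 22Rv1 was -0.58 (edgeR adjusted p = 0.783) and the difference was 1.37 (edgeR adjusted p = 0.554), so the size rests on which library is kept. MALAT1 gave -0.36, -0.42 and 0.27 in LNCaP, 22Rv1 and PC3, and none of these passed.

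The hosts of small nucleolar RNAs moved little. Of those with more than 3 counts in a library, 14 of 17 had a log2 fold change below 0 in LNCaP (median -0.20, range -0.52 to 0.26), 8 of 17 in 22Rv1 (median 0.04, range -0.91 to 0.40) and 10 of 18 in PC3 (median -0.01, range -0.68 to 0.35). Over all tested genes, 48.1%, 50.4% and 43.7% had a log2 fold change above 0 in LNCaP, 22Rv1 and PC3. The hosts share the libraries of a line, so their signs are not independent. Their sum was 3017 ± 279 CPM in LNCaP siCtrl (n = 3) and 2611 ± 325 CPM in siMED12 (n = 3), with overlap, 3408 ± 219 and 3465 ± 188 CPM (n = 2) in 22Rv1, and 1643 ± 63.7 and 1598 ± 9.38 CPM (n = 2) in PC3. SNHG29 did not pass in any line, its log2 fold change being -0.20 ± 0.112 in LNCaP, 0.10 ± 0.125 in 22Rv1 and -0.06 ± 0.142 in PC3. SNHG7, the lowest p of the set in LNCaP, gave -0.52 ± 0.187 there (edgeR adjusted p = 0.401) and -0.36 ± 0.146 in 22Rv1 (edgeR adjusted p = 0.271), where siMED12 read 437 and 413 CPM below siCtrl at 524, 582 and 534 CPM. SNHG1, host of several box C/D RNAs, was read in 22Rv1 at 85.9, 102 and 64.2 CPM in siCtrl and 53.0 and 57.7 CPM in siMED12. It gave -0.59 ± 0.23 in 22Rv1 (edgeR adjusted p = 0.25), -0.36 ± 0.172 in LNCaP (0.66), -0.16 ± 0.209 in PC3 (0.978) and -0.37 ± 0.118 for the mean effect (0.264). GAS5 gave -0.08, 0.12 and 0.10, none of which passed.

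OIP5-AS1 had the lowest p in PC3. It was read at 24.5, 17.9 and 11.6 CPM in PC3 siCtrl and 43.5 and 41.5 CPM in siMED12, apart in all 5 libraries, with a log2 fold change of 1.22 ± 0.315 that did not pass (edgeR adjusted p = 0.825, unadjusted p = 0.000491). In LNCaP siMED12 it was read at 35.0, 40.0 and 41.4 CPM, above siCtrl at 33.1, 18.6 and 29.7 CPM, and in 22Rv1 the groups overlapped. LINC00938, which lies 1846 bp from ARID2, a subunit of the PBAF chromatin remodeller, gave 0.84 ± 0.306 in LNCaP (edgeR adjusted p = 0.421) and 0.83 ± 0.328 in 22Rv1 (edgeR adjusted p = 0.257). Its libraries did not overlap in either line, with 18.2, 31.5 and 14.8 CPM in LNCaP siCtrl against 46.2, 33.4 and 34.5 CPM in siMED12, and 23.4, 13.4 and 26.9 CPM in 22Rv1 siCtrl against 42.4 and 34.6 CPM. LINC03011 gave -0.90 ± 0.381 in LNCaP (edgeR adjusted p = 0.593) and PCAT1 gave -0.81 ± 0.387 (edgeR adjusted p = 0.66), both apart without overlap. SNHG8 had the third lowest p in PC3, at -0.45 ± 0.273 (edgeR adjusted p = 0.974). SCHLAP1 gave 0.10 in LNCaP and PCAT6 -0.27, neither of which passed.

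**Figure D5:**
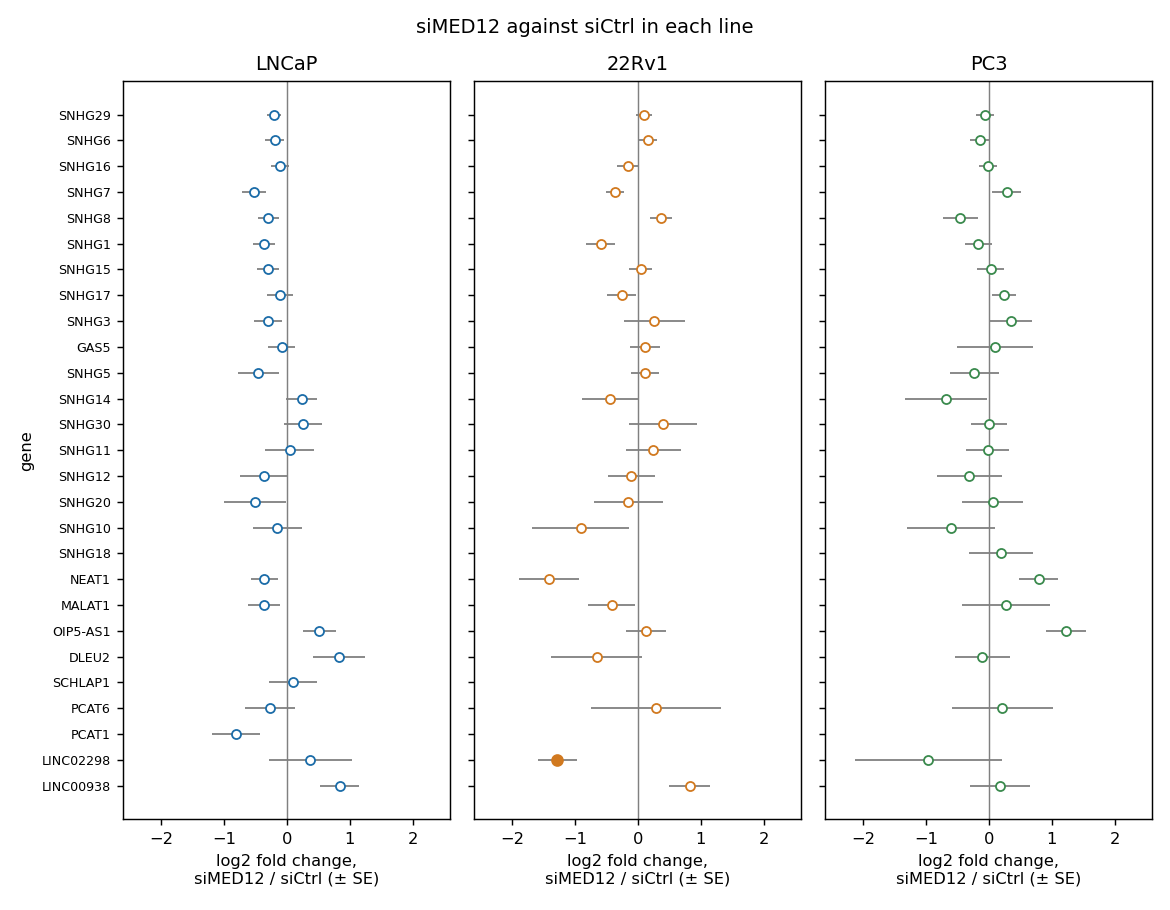
log2 fold change of siMED12 over siCtrl (x axis, ± SE) for the 25 RNAs outside the LINC family and 2 LINC genes (y axis) in each line. The filled point is LINC02298 in 22Rv1, the one past an adjusted p of 0.05, and points are left out where no library of the line held more than 3 counts.

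The effects of siMED12 were also compared between the lines, in contrasts that share groups. None of the 57 passed between 22Rv1 and LNCaP (0.189% of all genes passed), between PC3 and LNCaP (0.0284%) or between PC3 and 22Rv1 (0.0946%). At an unadjusted p under 0.05 the counts were 3, 2 and 5 of 57, beside 8.28%, 5.02% and 9.16% of all genes. Among the proteins these RNAs work with, none passed in any comparison of siMED12 with siCtrl or of its effect between lines: 0 of 9 tested proteins of small nucleolar ribonucleoproteins, 0 of 13 nonsense-mediated decay factors and 0 of 16 paraspeckle proteins. The same held for 17 tested long noncoding RNAs outside the name rule, from a list of 39. In siCtrl, 1 of the 9 ribonucleoprotein genes was higher and 1 lower in 22Rv1 than in LNCaP, 3 and 2 in PC3 than in LNCaP, and 2 and 3 in PC3 than in 22Rv1. For the 13 decay factors these counts were 4 and 0, 3 and 2, and 2 and 3, and for the 17 other RNAs 2 and 7, 4 and 8, and 6 and 5. The shares of all genes in the same order were 22% and 21.2%, 29.2% and 25.5%, and 28.7% and 26.1%. The medians of these lists in siMED12 against siCtrl were 0.09, -0.05 and 0.15 for the ribonucleoproteins, 0.02, 0.02 and 0.07 for the decay factors, -0.06, -0.23 and -0.03 for the paraspeckle proteins and 0.08, 0.01 and 0.06 for the other RNAs in LNCaP, 22Rv1 and PC3.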

How the data were processed

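Spheroids of 3 prostate cancer cell lines were profiled by BRB-seq in 16 libraries. The authors deposited raw counts per gene for 62703 genes, made with STARsolo on GRCh38 p13 per the labels, and log2 CPM for 10566 genes. Whether molecular identifiers were collapsed and whether counting used the strand is not given in the sources used here. The deposited log2 CPM were recomputed from the counts to within 5e-14 with edgeR (prior count 2), so the counts were used for all tests. Counts summed to 479118 to 993807 a library.

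The counts were filtered with filterByExpr (minimum count 10, minimum total 15), scaled by the trimmed mean of M values and fitted in 1 quasi-likelihood model of 6 groups with edgeR 4.0.16 in R 4.3.3. P-values were 2-sided and adjusted by Benjamini-Hochberg over all 10566 genes, with a threshold of 0.05. Standard errors (SE) were the log2 fold change over the root of F. Alternatives were relative log expression scaling, no filter, a replicate block, DESeq2 1.42.0, limma 3.58.1, the compared lines alone, leaving out each library or both siMED12 replicates 3 of 22Rv1 and PC3, and the legacy edgeR test, the last chosen after seeing the data.

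The RNAs and lists were chosen with earlier results of these data known. One gene with a matching name is not reported here. Values are given for all SNHG genes and the other RNAs named outside the LINC family that differed most, for every RNA past the threshold under siMED12, for line-restricted RNAs with those just outside the limit, and for the 3 lowest p-values per line. RNA coordinates are those of Gencode 44 on GRCh38, and promoter sequences those of RefSeq on GRCh38.p14.

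Same-numbered siCtrl and siMED12 libraries correlated in their deviations from the group means at 0.0516 to 0.214, and other pairs at -0.214 to 0.0718. In all 3 lines each same-numbered pair was the best match of its libraries. With 2 siMED12 libraries in 22Rv1 and PC3, their deviations mirror each other, so these values are not independent. The main fit took no pairing because the methods of the study name none, and a fit with a replicate block is given as an alternative.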

Additional observations from a re-analysis of the deposited data

Results flagged for a closer look

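SNHG7 and SNHG17 did not pass the test in any line, but had both siMED12 libraries below all siCtrl libraries in 22Rv1 and above them in PC3, while the LNCaP groups overlapped. Of all tested genes, 26.6% had groups apart in 22Rv1 and 20.7% in PC3. The share of all genes apart in opposite directions was not counted, so the pattern is given as a description. SNHG7 was read at 437 and 413 CPM against 524, 582 and 534 CPM in 22Rv1, and at 83.1 and 68.4 CPM against 64.5, 63.1 and 62.1 CPM in PC3. The difference between its effects was 0.64 on the log2 scale (0.6417 ± 0.271) and did not pass the edgeR interaction test (adjusted p = 0.464). SNHG17 was read at 47.7 and 42.3 CPM against 53.4, 56.8 and 52.6 CPM in 22Rv1, and at 115 and 112 CPM against 104, 98.8 and 83.8 CPM in PC3. Its difference was 0.499 ± 0.292 and did not pass either (edgeR adjusted p = 0.661). No group held 4 libraries, so single libraries were not tested as outliers.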

How the results depend on the processing

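The count of RNAs past the threshold for siMED12 in 22Rv1, 1 in the report, was 2 without the filter, 2 without both siMED12 replicates 3 of 22Rv1 and PC3, 0 by the legacy edgeR test, 0 by DESeq2, which gave LINC02298 no adjusted p (unadjusted p = 0.00893), and 0 to 2 when each library was left out in turn. The count for the difference of effects between PC3 and 22Rv1, 0 in the report, was 1 (NEAT1) without the filter, 1 by DESeq2, 1 without both replicates 3 and 0 to 1 over the single libraries left out. NEAT1 in 22Rv1 was also past the threshold without the filter (adjusted p = 0.0234) and by limma (adjusted p = 0.0371). The 11 line-restricted or line-depleted RNAs became 7 by limma, which lost LINC01341, SNHG18, LINC01550 and GAS5, and 9 to 12 over the single libraries left out. GAS5 also left the set with relative log expression scaling, DESeq2 and the replicate block. SNHG8 in PC3 ran from -0.94 to 0.050 over the single libraries left out, and was reversed (0.050) without PC3 siMED12 replicate 1. With the replicate block, 0, 1 and 0 of the 57 RNAs passed in LNCaP, 22Rv1 and PC3, with LINC02298 at -1.19 (edgeR adjusted p = 0.014), and 117, 312 and 20 of all genes, against 44, 194 and 0 without it. In each of the 3 lines the same-numbered libraries correlated best, a hint from the data and not the design. Over all genes, 22Rv1 gave 282 calls without the filter and 87 by DESeq2, and LNCaP gave 95 and 23. The compared lines alone give no value for the mean effect. The cause of these changes was not tested. Depth limits the 25 RNAs with a median under 10 counts.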

Other observations

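Of the 599 RNAs with matching names that had a count but were not tested, SNHG4 had the highest total, with 100 counts over 16 libraries and 1 to 11 counts in each. LINC00847 and LINC01703 followed with 84 counts each. In LNCaP siMED12 the summed level of OIP5-AS1 and DLEU2 was 53.4 to 57.4 CPM, above siCtrl at 30.1 to 41.4 CPM, and in PC3 it was 55.4 and 62.2 CPM, above siCtrl at 31.5 to 38.7 CPM, while the 22Rv1 groups overlapped. In PC3 this rested on OIP5-AS1, since DLEU2 overlapped between siCtrl and siMED12 there (log2 fold change -0.11). These sums were noticed in the data and were not tested.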
